A study of Mus musculus with 7 samples.

Results

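The genes described here are the variable (V) and constant (C) gene segments of the T cell receptor, taken as every gene that the deposited count table types as TR_V_gene or TR_C_gene. They number 152 of 55487 genes: 144 V segments and 8 constant genes. By chain there are 110 V segments and 1 constant gene for alpha, 22 and 2 for beta, 7 and 4 for gamma, and 5 and 1 for delta. RNA came from inguinal white adipose tissue, the fat pad of the groin, which surrounds a lymph node, of NOD/ShiLtJ mice, an inbred strain prone to autoimmune diabetes. All animals had a blood glucose of 190 to 230 mg/dL when injections began. The 3 sham libraries came from mice given KRBH buffer, and the 4 imBAT libraries from mice given the fraction above 100 kDa of imBAT conditioned buffer, that is buffer conditioned by brown adipocytes. The imBAT dose was 1.5 mg/kg body weight under the skin for 7 days, and tissue was taken 2 to 8 weeks later. Age, sex, the week at which each animal was sampled and whether each library is 1 mouse are unstated here. The p-values therefore reflect variation among these 7 libraries, which may be partly technical.

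A T cell receptor is a pair of chains, alpha with beta or gamma with delta, held at the cell surface by the CD3 proteins. In a developing T cell the RAG recombinase joins 1 V segment to a joining (J) segment, with a diversity (D) segment in beta and delta chains, and splicing then adds the constant region. Most T cells of blood and lymph nodes carry alpha-beta receptors, while gamma-delta T cells are a minority that is known in adipose tissue as a source of interleukin 17. Joining places a V segment near an enhancer, and joined segments are transcribed far more than unjoined ones.

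The alpha locus spans positions 52427928 to 54224206 of chromosome 14 (GRCm38), with the delta segments inside it from 53881612 to 54149294. The beta locus lies on chromosome 6 from 40891229 to 41558452 and the gamma locus on chromosome 13 from 19178024 to 19352756. V segments differ in sequence but share a landmark near their 3′ end, the codons for a tyrosine and a cysteine 1 residue apart, after which the joined part of the chain begins. That landmark, TAT or TAC, then 3 bases of any kind, then TGT or TGC, was found on the sense strand within the last 45 bases of 142 of the 144 V reference transcripts (98.6%). The last 60 bases are shown for the segments the results turn on, with the landmark in capitals, 5′ to 3′, from the GENCODE M21 transcripts of GRCm38. The first set holds the 3 relatives that took large shares of the beta reads, on the plus strand at chr6:41116007-41116468, chr6:41121396-41121832 and chr6:41130147-41130585.
Trbv13-1: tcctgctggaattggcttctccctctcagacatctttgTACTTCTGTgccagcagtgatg
Trbv13-2: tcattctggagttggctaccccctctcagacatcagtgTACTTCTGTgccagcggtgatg
Trbv13-3: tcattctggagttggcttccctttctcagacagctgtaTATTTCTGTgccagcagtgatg
The second set holds the most abundant alpha V segment, Trav3-3, and 3 gamma and delta segments with no call by edgeR.
Trav3-3: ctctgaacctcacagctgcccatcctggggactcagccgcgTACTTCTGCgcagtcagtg
Trgv2: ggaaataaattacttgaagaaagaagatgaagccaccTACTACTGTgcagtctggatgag
Trgv6: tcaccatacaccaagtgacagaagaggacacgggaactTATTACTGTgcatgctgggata
Trdv4: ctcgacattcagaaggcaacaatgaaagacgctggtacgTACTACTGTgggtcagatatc
The third set shows why some alpha values are uncertain, since a read from this stretch matches 3 genes at once.
Trav5-4: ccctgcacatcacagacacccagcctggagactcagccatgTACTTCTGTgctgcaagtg
Trav5d-4: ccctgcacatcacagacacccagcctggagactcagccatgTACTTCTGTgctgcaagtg
Trav5n-4: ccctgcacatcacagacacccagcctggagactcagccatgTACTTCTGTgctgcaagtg

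The mouse alpha locus holds repeated blocks of V segments, whose copies carry a d or an n in their names. Of the 152 members, 30 fell into 15 sets with identical reference transcripts. Counts within a set differed by at most 5 over all 7 libraries (8 against 3), and were equal in every library for 6 sets, among them Trav5d-4 and Trav5n-4 with 27 counts each. Of the 15 sets 14 had any count, and the set without counts is among the 6. None of these 30 members had enough counts to be tested. Of the 71 V segments that were tested, 26 had another segment of their chain at 97% identity or more, so their reads may be split between near copies.

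The libraries held 41025786 to 44983250 counts (sham) and 43360208 to 63650016 counts (imBAT). The members made up 0.0428% to 0.0597% of the counts in sham libraries and 0.00567% to 0.0215% in imBAT libraries, where imBAT replicate 3 was lowest with 771 V counts and 2084 constant counts. Reads from several cell types moved between the groups. Over all 26393 genes tested, edgeR called 19.3% lower and 24.3% higher in imBAT. All 10 T cell markers and all 9 B cell markers were called lower, and their summed levels went from 1083 to 1411 and 1683 to 2015 CPM in sham to 183.8 to 591.2 and 270.8 to 715.5 CPM in imBAT (CPM is the count relative to the library total, scaled between libraries by TMM). Of 9 tested lymph node stroma and venule markers 7 were called lower, with Glycam1 at 679.7 to 1029 CPM in sham and 96.4 to 316.2 CPM in imBAT, and 1, Ltbr, was called higher. All 12 white adipocyte markers were called higher, with summed levels of 2344 to 4890 CPM in sham and 13913 to 31944 CPM in imBAT. Of the macrophage markers 4 of 6 were called higher, of the red blood cell markers 4 of 4 higher, and of the dendritic cell markers 4 of 5 lower. Of 7 natural killer cell markers 2 were called lower and 2 higher. The part of these shifts in the results on receptor genes was not tested. In bulk tissue, fewer T cells and less receptor RNA per T cell cannot be told apart.

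Receptor genes of the alpha and beta chains were lower in imBAT, and no member was called higher. The levels of alpha V segments, summed, were 46.6, 53.3 and 58.1 CPM in the sham libraries and 20.6, 24.9, 7.11 and 21.7 CPM in imBAT replicates 1 to 4. Those of beta V segments were 69.5, 74.6 and 93.8 CPM in sham and 30.8, 35.1, 9.27 and 32.4 CPM in imBAT. In both chains every imBAT library lay below every sham library, and imBAT replicate 3 lay far below the other imBAT libraries. The mean difference was -1.64 on the log2 scale (3.13-fold) for alpha and -1.72 (3.29-fold) for beta. Without imBAT replicate 3 the differences were -1.23 and -1.26. The exact two-sided permutation test gave p = 0.0571 for each, the smallest value that 3 against 4 libraries allow, and 0.107 after Benjamini-Hochberg adjustment over the 15 summary values tested this way.

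**Figure D1:**
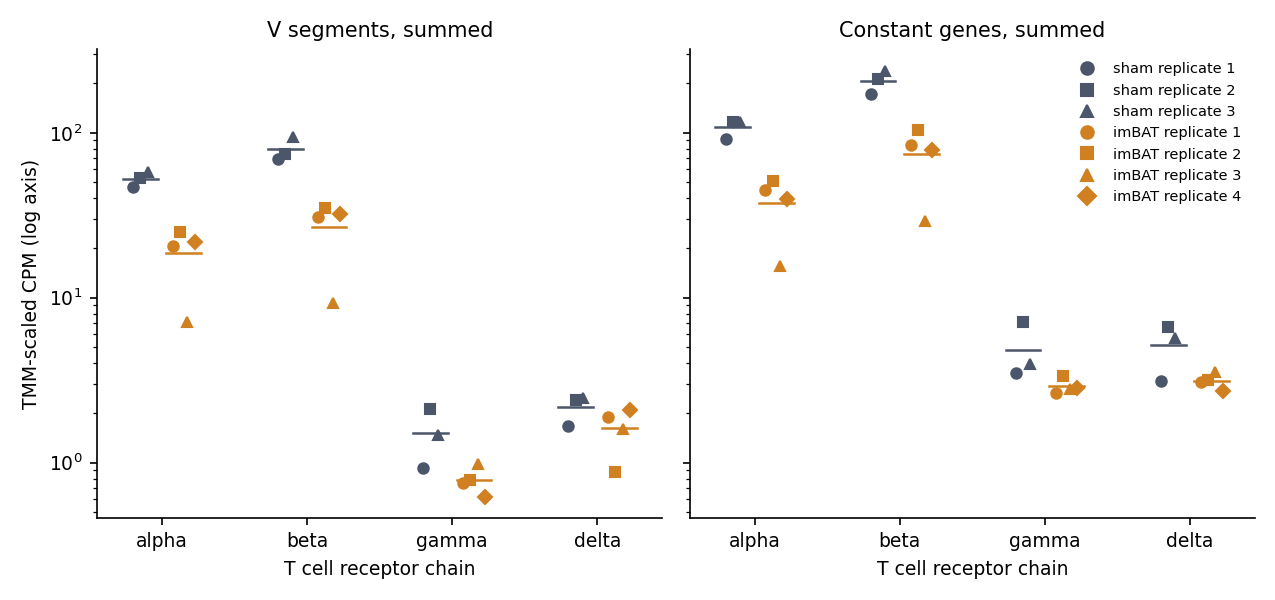
Summed level of V segments (left) and constant genes (right) of each T cell receptor chain, in TMM-scaled CPM on a log axis. Points are libraries (3 sham, 4 imBAT) and short lines are group means; alpha and beta points of imBAT lie below all sham points, with imBAT replicate 3 lowest, while gamma and delta V points overlap.

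Of the 152 members 79 passed the filter on low counts. The other 73 had at most 34 counts in any library, and 6 of them had none. The filter asks for enough counts in 3 libraries only, so a gene can pass through the sham libraries alone. Trbv5 (19, 31 and 25 counts in sham, 2 to 8 in imBAT) and Trav1 are examples. Members that entered this way were bound to look lower in imBAT. The counts by direction and the largest falls given below depend in part on this. Of the 79 tested, edgeR's quasi-likelihood test called 45 (57.0%) lower at an adjusted p under 0.05 and none higher, where over all 26393 genes tested it called 19.3% lower and 24.3% higher. The log2 fold change was below 0 for 78 of the 79, with a median of -1.45, against a median of -0.01 over all genes. Groups did not overlap for 61 members, all lower in imBAT, against 25.2% of all genes. The called members were 27 of 49 tested for alpha, 18 of 19 for beta, 0 of 7 for gamma and 0 of 4 for delta. Fewer calls came without sham replicate 2 (27 members, with 11.1% of all genes called lower) and without sham replicate 3 (18 members, 11.3% of all genes). There were 47 without imBAT replicate 3 (19.6% of all genes), and 38 with no expression filter (10.3% of all genes). Of the 45, 16 were called in each of the 7 fits that left out 1 library, among them Trac, Trbc1, Trbc2, Trbv13-2 and Trav3-3, and the fold change of all 45 was below 0 in each of these fits that tested them. The share of all genes called lower in every such fit was not counted. In single fits it was 11.1% to 19.6%.

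**Figure D2:**
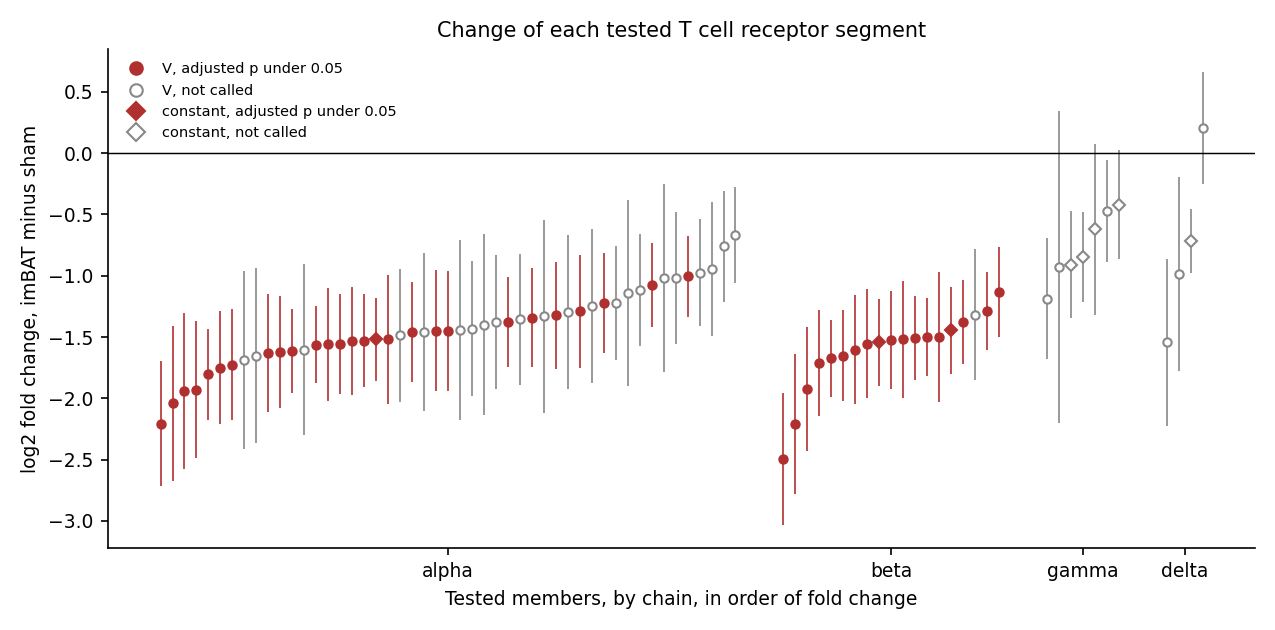
Log2 fold change (imBAT minus sham) of the 79 tested members by chain, with 1 standard error from edgeR. Filled red symbols are the 45 members called lower, open grey symbols are not called, and diamonds are constant genes; all calls lie in alpha and beta, and Trdv4 is the 1 member above 0.

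The alpha and beta constant genes had more counts than any single V segment. Trac, the constant gene of the alpha chain (chromosome 14, 54220521 to 54224206, plus strand), stood at 91.4, 116.5 and 117.0 CPM in sham and at 44.9, 50.8, 15.6 and 39.7 CPM in imBAT. All imBAT libraries were below all sham libraries, and Trac fell by 1.52 ± 0.34 on the log2 scale (SE, edgeR adjusted p = 0.00809). Trbc1 (chromosome 6, 41538218 to 41539881) stood at 65.5, 79.6 and 92.0 CPM in sham and 28.8, 38.4, 10.7 and 30.4 CPM in imBAT, and fell by 1.54 ± 0.35 (edgeR adjusted p = 0.00922). Trbc2 (41546730 to 41548352), the constant gene of the other beta cluster, stood at 105.8, 132.3 and 146.5 CPM in sham and 55.4, 66.1, 18.6 and 48.0 CPM in imBAT, and fell by 1.45 ± 0.36 (edgeR adjusted p = 0.0122). The call of Trbc2 was lost with no expression filter (adjusted p = 0.0639). Trbc1 and Trbc2, whose transcripts are 88.7% identical, had overlapping proportions: Trbc1 took 38.1 ± 0.514% of the pair's counts in sham (SD, n = 3) and 36.6 ± 1.87% in imBAT (n = 4). Per kilobase of transcript, sham levels were 115.8 CPM for Trac, 107.2 for Trbc1 and 185.2 for Trbc2, against 1.33 for the delta constant gene Trdc. The length used was that of each gene's longest transcript, 3865 bases for Trdc and 692 to 935 for the others. Without this scaling the sham means were 108.3 CPM for Trac and 5.16 CPM for Trdc.

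Among beta V segments 16 of the 17 tested were called lower, and all 17 had a log2 fold change below 0 (median -1.52). Trbv13-2, known as Vbeta8.2 and used by many natural killer T cells, was the most abundant. It stood at 9.97, 12.3 and 12.8 CPM in sham and at 5.33, 4.89, 1.87 and 5.92 CPM in imBAT, and fell by 1.38 ± 0.34 on the log2 scale (edgeR adjusted p = 0.0123). Trbv13-1 had 8.07, 8.54 and 12.7 CPM in sham and 3.82, 3.55, 0.885 and 3.62 CPM in imBAT, and fell by 1.71 ± 0.43 (adjusted p = 0.0136). In both segments the groups were apart and imBAT replicate 3 was lowest. Trbv13-3 fell 3.14-fold, Trbv16 3.04-fold and Trbv1 2.94-fold. The 4 largest falls were those of Trbv5 (5.64-fold, from 0.509 ± 0.103 to 0.0909 ± 0.0682 CPM), Trbv17 (4.62-fold), Trbv31 (by 1.93 on the log2 scale) and Trbv13-1 (3.27-fold). Trbv31 is the 1 beta segment on the minus strand, downstream of Trbc2. The 4 smallest changes were -1.13 for Trbv20 (2.19-fold, called), -1.29 for Trbv2 (called), -1.32 for Trbv19 and -1.38 for Trbv13-2. Trbv19 was the 1 tested beta segment not called, at 3.87, 4.54 and 6.19 CPM in sham and 2.08, 3.35, 0.394 and 1.92 CPM in imBAT (edgeR adjusted p = 0.0748). Trbv19 was called by DESeq2 (adjusted p = 0.0321), by voom (0.0114), with upper-quartile scaling (0.0437), after thinning to the smallest library (0.0489) and when imBAT replicate 2 (0.0356) or imBAT replicate 3 (0.0227) was left out. When sham replicate 3 was left out, calls were lost for Trbv13-1, Trbv16, Trbv1, Trbv17 and Trbv31 (adjusted p = 0.0576, 0.0745, 0.0839, 0.0614 and 0.0507). Trbv20 was not called when sham replicate 2, sham replicate 3, imBAT replicate 1, imBAT replicate 2 or imBAT replicate 3 was left out (edgeR adjusted p up to 0.131). Trbv4, too low to test, had 9, 9 and 16 counts in sham and 1, 2, 0 and 0 in imBAT replicates 1 to 4.

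The makeup of the beta V reads overlapped between the groups for most segments. Each segment's share is its percent of all beta V counts of a library, which were 3145 to 4833 in sham and 377 to 2146 in imBAT. Trbv13-2 took 14.3%, 16.5% and 13.7% in sham and 17.3%, 13.9%, 20.2% and 18.3% in imBAT, so the ranges overlapped. Trbv13-1 took 12.2 ± 1.14% in sham and 10.8 ± 1.25% in imBAT, and Trbv16 9.59 ± 0.437% and 8.94 ± 1.12%. The 6 segments with the largest shares together held 59.4% in sham and 59.8% in imBAT. The groups did not overlap for 3 of the 22 segments: Trbv17 (2.50 ± 0.373% in sham, 1.38 ± 0.640% in imBAT), Trbv4 (0.287 ± 0.0444%, 0.0383 ± 0.0462%) and Trbv30 (0.204 ± 0.0125%, 0.566 ± 0.360%). By the same measure the groups did not overlap for 6 of 110 alpha, 1 of 7 gamma and 0 of 5 delta V segments. None of these shares was tested singly. The effective number of beta segments, the number of equally used segments that would give the same Shannon entropy, was 14.4, 14.6 and 14.3 in sham and 13.6, 14.2, 13.5 and 13.9 in imBAT. It was lower in every imBAT library, by 0.639 of a segment on average (exact permutation p = 0.0571, adjusted 0.107), beside fewer beta counts in each of them. With all libraries thinned once to the smallest total, the groups overlapped and the difference was -0.607 (exact permutation p = 0.171). Such thinning evens the totals but not the beta V counts, so the part of those counts was not tested. Over segments with a count in every library the difference was -0.380 (exact permutation p = 0.114).

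**Figure D3:**
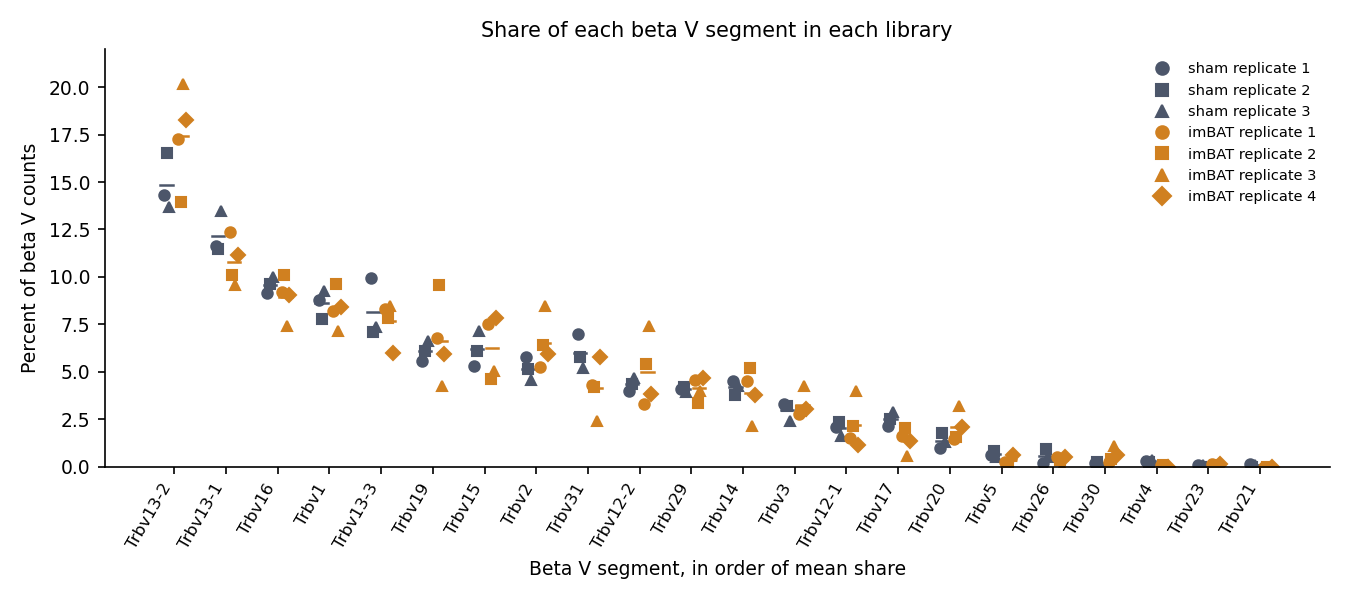
Percent of beta V counts taken by each of the 22 beta V segments in each library (points), with group means as short lines. Trbv13-2 leads in all 7 libraries with 13.7% to 20.2%, and points of the groups overlap for all but 3 segments.

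Among alpha V segments 26 of 48 tested were called lower and all 48 had a log2 fold change below 0, from -2.21 to -0.67 with a median of -1.45. The levels of single alpha segments were low. Trav3-3, the most abundant (chromosome 14, 53665929 to 53666506), stood at 2.45, 4.54 and 4.45 CPM in sham and 1.46, 1.13, 0.492 and 1.27 CPM in imBAT, and fell by 1.80 ± 0.37 on the log2 scale (edgeR adjusted p = 0.0059). Trav13-2 fell 3.10-fold from 3.03 ± 0.186 to 0.968 ± 0.522 CPM, Trav7-4 3.37-fold, Trav5-4 2.59-fold from 1.97 ± 0.0679 to 0.752 ± 0.349 CPM, and Trav14-1 2.53-fold. Trav8d-1 had 1.77, 1.87 and 2.25 CPM in sham and 0.627, 0.949, 0 and 0.815 CPM in imBAT and was not called (adjusted p = 0.0899), except without imBAT replicate 3 (adjusted p = 0.00637) and by voom (0.0398). The largest falls were those of Trav7n-4 (4.62-fold), Trav4-4-dv10 (4.11-fold), Trav4-3 (3.84-fold) and Trav1 (by 1.93 on the log2 scale). Trav1, the alpha segment of mucosal-associated invariant T cells, had 15, 22 and 36 counts in sham and 4, 14, 6 and 2 in imBAT, with no overlap in CPM. The smallest changes were those of Trav12-3 (-0.67), Trav6n-6 (-0.76), Trav6d-4 (-0.94) and Trav4-2 (-0.97), none of them called by edgeR, while voom called Trav4-2 (adjusted p = 0.0368). Several calls were lost when 1 library was left out. Trav13-2 was not called when any sham library was left out (edgeR adjusted p up to 0.0743), and Trav5-4 not without sham replicate 2 (0.0524) or sham replicate 3 (0.0503). Trav14-1 was not called without sham replicate 2, sham replicate 3 or imBAT replicate 4 (up to 0.0906). Trav4-4-dv10 lost its call when sham replicate 2, sham replicate 3, imBAT replicate 1 or imBAT replicate 4 was left out (up to 0.125). The same held for Trav4-3 with sham replicate 2, sham replicate 3, imBAT replicate 1 or imBAT replicate 3 (up to 0.121), and for Trav1 with sham replicate 2, sham replicate 3 or imBAT replicate 1 (up to 0.108).

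Some alpha segments known from invariant or diabetes-related T cells were near the limit of detection. Trav11 and its copy Trav11d encode the invariant alpha chain of natural killer T cells. They had 4 and 3 counts over the 3 sham libraries and 1 and 1 over the 4 imBAT libraries, too few for a fold. Trav5d-4, known from insulin-reactive T cells of NOD mice, had 1, 9 and 8 counts in sham and 1, 3, 3 and 2 in imBAT, and was not tested. Its close relative Trav5-4, printed beside it above, had 87, 102 and 100 counts in sham. Reads had been aligned to a reference from C57BL/6J rather than from NOD.

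The blocks of the alpha locus held overlapping shares in the groups. Segments without a d or n in their names held 64.7 ± 0.68% of alpha V counts in sham and 65.5 ± 3.46% in imBAT, the d copies 20.5 ± 0.73% and 18.2 ± 5.32%, and the n copies 14.8 ± 1.36% and 16.3 ± 2.53%. The imBAT spread came mostly from imBAT replicate 3, with 289 alpha V counts in all, where d copies held 10.4%. Of the 10 alpha segments that can also join into delta chains, 5 were tested and 3 were called lower (19.3% of all genes), with a median of -1.48. The effective number of alpha segments was 48.3, 49.8 and 52.7 in sham and 47.4, 48.9, 37.3 and 46.2 in imBAT, so the groups overlapped (exact permutation p = 0.114, adjusted 0.171). The mean difference of -5.35 was -2.82 without imBAT replicate 3, and 0.111 when only segments with a count in every library were used.

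Among gamma and delta genes edgeR called none of the 11 tested members (3 at an unadjusted p under 0.05, where 24.4% of all genes were below that p and lower). DESeq2 called 1 of them lower (22.4% of all genes) and voom 3 (24.1%), and 3 were called with upper-quartile scaling (31.0%). Trdc, the constant gene of the delta chain (chromosome 14, 54142851 to 54148868), stood at 3.12, 6.69 and 5.67 CPM in sham and 3.08, 3.19, 3.57 and 2.73 CPM in imBAT. The groups overlapped, and its log2 fold change was -0.72 ± 0.26 (edgeR adjusted p = 0.0554). It was called lower by DESeq2 (adjusted p = 0.0262), by voom (0.02), with upper-quartile scaling (0.0192), with a filter of 1 CPM (0.046) and without sham replicate 1 (0.0101) or imBAT replicate 3 (0.0491). Trgc4, the most abundant gamma constant gene, stood at 1.61, 2.95 and 1.69 CPM in sham and 0.811, 1.59, 1.50 and 0.719 CPM in imBAT. Its groups were just apart and its log2 fold change was -0.85 ± 0.37 (adjusted p = 0.0909); voom and upper-quartile scaling called it (0.0364 and 0.04). The other gamma constant genes had log2 fold changes of -0.91 ± 0.44 (Trgc1, called without sham replicate 1, adjusted p = 0.0408), -0.62 ± 0.70 (Trgc3) and -0.42 ± 0.44 (Trgc2, 0.01 without sham replicate 2). Summed, the gamma constant genes stood at 3.49, 7.11 and 3.94 CPM in sham and 2.65 to 3.37 CPM in imBAT, with no overlap and a log2 difference of -0.67 (exact permutation p = 0.0571, adjusted 0.107), which was -0.35 without sham replicate 2. Trgc1, Trgc2 and Trgc3 are 95.1% to 97.1% identical, so reads may be shared among them. Without sham replicate 2 the log2 fold changes of Trgc1 and Trgc4 were -0.39 and -0.51, and that of Trgc3 ranged from -1.27 (without imBAT replicate 4) to -0.34 (without imBAT replicate 3).

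The V segments of gamma and delta differed among themselves. Trdv4, known as Vdelta1 and paired with Vgamma6 in a tissue-resident subset, stood at 0.729, 1.49 and 0.602 CPM in sham and 1.01, 0.491, 1.50 and 1.37 CPM in imBAT. Its groups overlapped, with a log2 fold change of 0.21 ± 0.46 (edgeR adjusted p = 0.738), and the sign turned with upper-quartile scaling and without sham replicate 3 or imBAT replicate 3. Trgv6, the gamma segment with 10, 28 and 2 counts in sham and 6, 0, 20 and 0 in imBAT, was high in sham replicate 2 and imBAT replicate 3, the library of each group in which Trdv4 was also highest. Cd163l1, a scavenger receptor of interleukin 17-producing gamma-delta T cells, was highest in the same libraries, at 27.6 CPM in sham replicate 2 and 15.3 CPM in imBAT replicate 3 while the other sham libraries had 8.13 and 11.3 CPM and the other imBAT libraries 3.14 to 6.51 CPM. Cd163l1 was picked after its values were seen, and so was 5830411N06Rik, which did not follow this pattern in imBAT. 5830411N06Rik stood at 7.54, 10.9 and 6.89 CPM in sham replicates 1 to 3, highest in replicate 2. In imBAT replicates 1 to 4 it stood at 3.96, 4.17, 0.935 and 3.19 CPM, lowest in replicate 3. It was called lower (edgeR adjusted p = 0.026). The fold changes of Trgv6 (-0.93 ± 1.27, and 0.17 without sham replicate 2) and Cd163l1 (-1.04 ± 0.56) were not called. Trgv2 and Trgv1 had log2 fold changes of -0.47 ± 0.42 and -1.19 ± 0.49, and Trdv1 and Trdv2-2 of -0.98 ± 0.79 and -1.54 ± 0.68, none called by edgeR. Leaving out 1 library moved these values to as little as -0.13 for Trgv2 (without sham replicate 2), and to -0.48 for Trdv1 and -0.87 for Trdv2-2 (each without sham replicate 3). Trgv1 was called by voom (0.0244), with upper-quartile scaling (0.0455) and without imBAT replicate 2 (0.0465). Trdv4 took 43.4%, 61.7% and 24.4% of delta V counts in sham and 53.4%, 55.6%, 93.8% and 65.5% in imBAT, out of 54 to 127 counts per library. The effective number of gamma segments was 3.83, 4.39 and 3.29 in sham and 3.08, 2.14, 2.99 and 2.46 in imBAT, from 26 to 106 counts per library, with no overlap (exact permutation p = 0.0571, adjusted 0.107). The mean difference of -1.17 was -0.137 over segments with a count in every library (exact permutation p = 0.286). For delta it was 3.77 ± 0.504 in sham and 2.80 ± 1.07 in imBAT (exact permutation p = 0.171, adjusted 0.198). The delta difference of -0.975 was -0.481 without imBAT replicate 3 and -0.318 over segments with a count in every library.

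The balance between the receptor types was measured as the share of gamma and delta constant genes in all constant counts. It was 2.46% in sham replicate 1 (95% Wilson interval 2.19% to 2.75%), 4.03% in sham replicate 2 (3.75% to 4.34%) and 2.63% in sham replicate 3 (2.41% to 2.87%). In imBAT it was 4.25% (3.81% to 4.74%), 4.05% (3.68% to 4.46%), 12.4% (11.0% to 13.9%) and 4.51% (3.98% to 5.12%) in replicates 1 to 4. These intervals cover counting error only. Every imBAT value was above every sham value, but sham replicate 2 and imBAT replicate 2 differed by less than their intervals. The mean difference was 3.26 percentage points (exact permutation p = 0.0571, adjusted 0.107), and 1.23 without imBAT replicate 3. That library had the fewest alpha-beta reads, with 633 Trac counts against 1658 to 3106 in the other imBAT libraries. Its 145 Trdc counts lay within the 114 to 195 of the others. In TMM-scaled CPM, its Trac level was the lowest in imBAT (15.6, against 39.7 to 50.8). Its Trdc level was the highest in imBAT (3.57, against 2.73 to 3.19). Its summed gamma constant genes (2.78) lay within the others (2.65 to 3.37). The adipocyte hormone Adipoq was also highest there, at 1683 CPM (606.6 to 1265 in the other imBAT libraries). The part of this difference in the share was not tested.

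**Figure D4:**
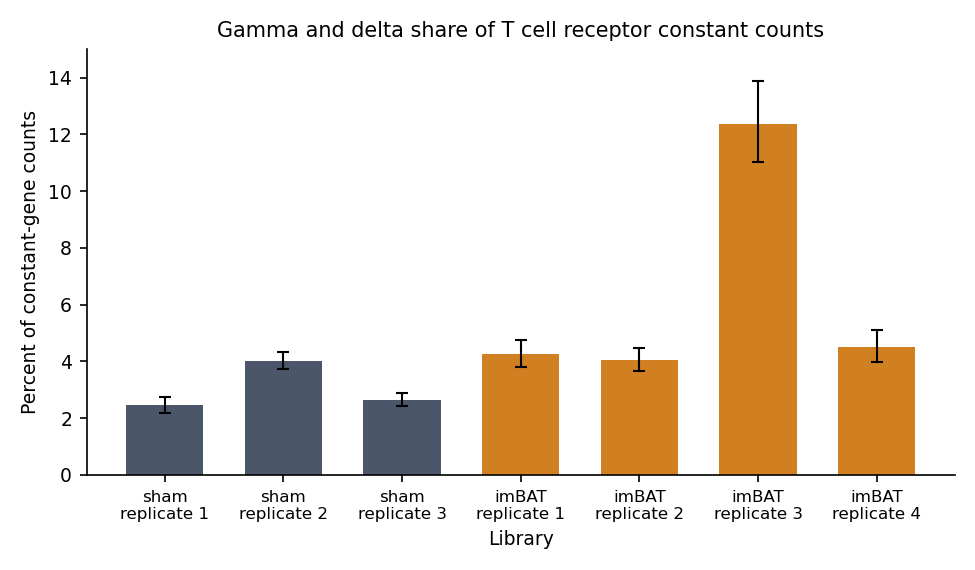
Gamma and delta constant-gene counts as a percent of all T cell receptor constant counts in each library; bars start at 0 and error bars are 95% Wilson intervals (counting error only). Sham values are 2.46% to 4.03% and imBAT values 4.05% to 4.51%, apart from 12.4% in imBAT replicate 3.

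Receptor reads were set against those of the CD3 genes, whose proteins (Cd3e, Cd3d, Cd3g and the zeta chain Cd247) carry every receptor to the surface. V counts per CD3 count were 0.360, 0.330 and 0.374 in sham and 0.338, 0.342, 0.329 and 0.389 in imBAT. Constant counts per CD3 count were 0.817, 0.852 and 0.877 in sham and 0.841, 0.900, 0.889 and 0.847 in imBAT. The groups overlapped in both ratios. The log2 differences were -0.02 (exact permutation p = 0.743) and 0.03 (exact permutation p = 0.40), adjusted 0.743 and 0.429. These p-values do not show that the ratios are equal, and the ratios of the 7 libraries lay between 0.329 and 0.389 for V and between 0.817 and 0.900 for constant genes while the alpha V level itself ranged from 7.11 to 58.1 CPM.

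**Figure D5:**
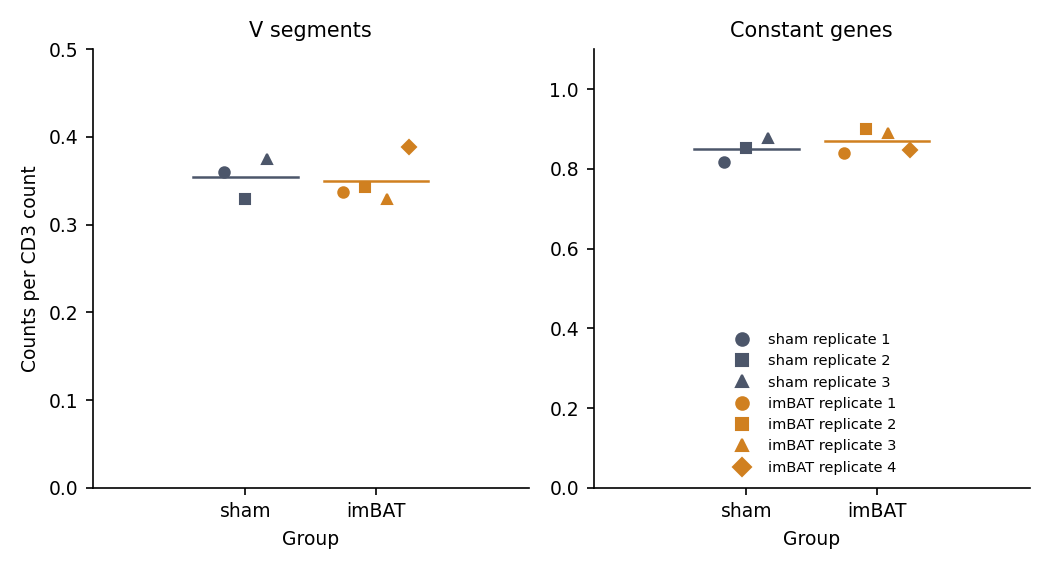
V segment counts (left) and constant-gene counts (right) per count of Cd3e, Cd3d, Cd3g and Cd247 summed, 1 point per library, group means as short lines, axes from 0. The points of sham and imBAT overlap, at 0.329 to 0.389 on the left and 0.817 to 0.900 on the right.

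Most of the other tested genes of the receptor loci were also called lower. Of 70 J genes 62 were tested and 56 were called lower (19.3% of all genes), with a median log2 fold change of -1.53. Both tested D genes and 9 of 10 tested V and J pseudogenes were called lower, and none of these genes was called higher. The 67 calls among these 74 tested genes were 31 without sham replicate 2 (11.1% of all genes called lower) and 25 without sham replicate 3 (11.3%).

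Of the 45 genes of the receptor complex and its proximal signalling, all tested, 43 were called lower and 1 higher (19.3% and 24.3% of all genes), with a median of -1.50. Cd3e, a CD3 chain, stood at 149.8, 192.7 and 179.1 CPM in sham and 73.3, 82.3, 24.4 and 65.7 CPM in imBAT (2.83-fold lower, edgeR adjusted p = 0.00935). Cd3d fell 2.70-fold, Cd3g 2.85-fold and Cd247 2.80-fold. The coreceptors Cd4 and Cd8a fell 2.60-fold and 3.33-fold, Cd8b1 3.25-fold, and the kinases Lck and Zap70 2.86-fold and 2.85-fold. Trat1, an adaptor of the receptor complex, fell 3.68-fold, Malt1 of the pathway to NF-kappaB 2.44-fold and the exchange factor Vav1 2.39-fold. Gata3, a transcription factor of T helper cells that other tissues also express, was the member called higher (2.45-fold), and Nfatc2 was the 1 not called (-0.44 ± 0.16, adjusted p = 0.052). With no expression filter Cd3e, Cd3d and Zap70 were not called (adjusted p = 0.0508, 0.0558 and 0.0636).

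The recombinase genes Rag1 and Rag2 were near 0, with 0 to 4 and 2 to 8 counts per library. The pre-T alpha chain Ptcra had 0 to 12, and none of these genes was tested. Of the 17 genes of the recombination and thymocyte list 14 were tested, 8 were called lower and 1 higher (19.3% and 24.3% of all genes). Ccr9, a homing receptor, fell 2.69-fold and Prkdc, of DNA end joining, 1.41-fold. Cd1d1, which presents lipids to natural killer T cells and is found on many cell types, rose 5.22-fold from 23.2 ± 2.83 to 120.9 ± 42.7 CPM. Of the 22 genes of the gamma-delta and innate-like T cell list 20 were tested, 7 were called lower and 6 higher (19.3% and 24.3% of all genes), with a median of -0.50. Blk, a kinase of B cells and of some gamma-delta T cells, fell 3.53-fold and the interleukin 23 receptor Il23r 3.12-fold, while the transcription factor Sox13 rose 2.28-fold. Which cells of the tissue gave the Sox13 reads was not tested. Without sham replicate 2 or 3 there were 3 calls higher in place of 6, where 16.5% and 17.3% of all genes were called higher.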

How the data were processed

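Bulk RNA sequencing gave 7 libraries. The authors deposited raw read counts per gene. STAR 2.7.9a was the aligner and Ensembl release 101 the assembly, per the labels' protocols. Per the submitters' processing notes, featureCounts 2.0.3 and Salmon 1.5.2 were among the tools, without their roles. How strand and reads matching several genes were treated is not given in the sources used here. The table had 55774 rows, of which 287 repeats of a gene, equal in all counts, were removed. All 152 members were present in GENCODE M21 (GRCm38), the source of coordinates and sequences. Of counts between 1 and 20, 68.3% were even over all genes and 60.1% over V segments; if both mates of a fragment were counted, counting intervals are too narrow.

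Groups came from the treatment label, and replicates were numbered in accession order. No same-group pair was alike within sampling noise (chi-square per degree of freedom 22.5 to 241.2). The comparison used edgeR 4.0.16 (R 4.3.3): quasi-likelihood F test, robust fit, TMM, filterByExpr with a minimum count of 10, group alone, 5 residual degrees of freedom, Benjamini-Hochberg over all 26393 genes tested. SE is the log2 fold change over the square root of F. Sums, shares, ratios and effective numbers were compared by exact two-sided permutation over the 35 choices of 3 libraries. Alternatives included DESeq2 1.42.0 and limma voom 3.58.1. On simulated counts over 25957 genes for this comparison, edgeR recovered 33.3% of 96 genes changed by 1 and 74.0% of 96 changed by 2 on the log2 scale, with 11 false calls among 114. The members and lists were chosen with earlier results of these data known. Named members are all constant genes, the tested gamma and delta V segments, the 6 most abundant, 4 most lowered and 4 least changed alpha and beta V segments, and segments and reference genes fixed by name, with the 3 smallest p-values per list. Trbv4, Trbv30, Trav5n-4, Cd163l1, 5830411N06Rik, Gata3, Nfatc2, Glycam1 and Ltbr were chosen after their values were seen. A ranking of genes by likeness to Trac is not given, because the libraries fall into separate groups.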

Additional observations from a re-analysis of the deposited data

Results flagged for a closer look

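Among 81 values examined in the 4 imBAT libraries, 8 had 1 library far from the other 3, by the gap to its neighbour as a part of the whole range. The limit used is passed by about 1 in 20 independent values from a normal distribution. These 81 values are not independent, since they include sums and the genes within them. The 8 therefore cannot be set against that rate. In 6 of the 8 the library apart was imBAT replicate 3. The gamma and delta share of constant counts was the clearest, with a gap of 0.944 of a range from 4.05% to 12.4%. The summed beta V level had a gap of 0.834 (9.27 to 35.1 CPM), Trbv13-1 of 0.909 (0.885 to 3.82 CPM), Cd4 of 0.861 (39.1 to 104.2 CPM), Malt1 of 0.881 (63.7 to 111.7 CPM) and Trat1 of 0.905 (2.41 to 6.04 CPM), each lowest in that library. Trav11 and Trav11d had a gap of 1.0 each, since 1 imBAT count of each lay in imBAT replicate 1 and none in the others.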

How the results depend on the processing

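All 45 called members stayed below 0 in each alternative that tested them. Calls of 45 members became 27 with a filter of 1 CPM in 3 libraries, which tested 26 of the 45, and 18 to 47 with 1 library left out (alpha 9 to 28, with 10 under the 1 CPM filter; beta 9 to 19; gamma 0 to 1; delta 0 to 1; constant genes 3 to 5; J, D and pseudogenes 25 to 67; the gamma-delta list, higher, 3 to 7; all genes, lower, 3024 to 5097). Gamma calls were 2 with upper-quartile scaling, voom or an adjusted p under 0.10. Delta calls were 1 with upper-quartile scaling, the 1 CPM filter, DESeq2 or voom, and 2 at an adjusted p under 0.10. Constant-gene calls were 5 with upper-quartile scaling, voom or an adjusted p under 0.10. Over all genes, 25.0% were called lower with the 1 CPM filter and 24.8% at an adjusted p under 0.10. The share was 31.0% with upper-quartile scaling, 22.4% with DESeq2 and 24.1% with voom. Upper-quartile scaling moved the median of all genes to -0.25 and called 8180 genes lower and 4722 higher (36.6% of calls higher), in place of 5084 and 6407 (55.8%). With 1 library left out, fold changes of both signs were seen for Trgc2 (-0.617 to 0.0130, above 0 without sham replicate 2), Trgv6 (-1.44 to 0.170, above 0 without sham replicate 2) and Trdv4 (-0.0382 to 0.704, below 0 without sham replicate 3 or imBAT replicate 3). Trdv4 was also below 0 with upper-quartile scaling (-0.0508). Signs turned for the V to CD3 log2 ratio, which was 0.0590 against Cd2 and Cd5 and -0.0753 to 0.0169 with 1 library left out, and for the effective number of alpha segments (0.111 over segments with a count in every library). Over those segments shares were 8.85% for Trav3-3, 7.14% for Trav13-2, 53.4% for Trgv2 and 63.5% for Trdv4 in sham, and 68.3% for Trgv2 in imBAT. The cause was not tested. The number that opens each title (28, 29 and 31 occur in both groups) was used as a replicate block: 40 members were called, with 17.6% of all genes called lower, and Trbv19 was among them (adjusted p = 0.0176 with edgeR). Deviations of same-numbered libraries correlated at -0.01, 0.11 and 0.10, so the numbers were not taken to pair them. Depth limits single V segments: 73 members could not be tested.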
